A study of Homo sapiens with 6 samples.

Results

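Expression of 10 genes for secreted factors of the TGF-beta superfamily and for follistatins was examined in Capan-1 cells with and without a p16 cDNA. The genes were 7 ligand genes (GDF15, INHBA, INHBB, BMP2, BMP4, TGFB1 and TGFB2) and the follistatin genes FST, FSTL1 and FSTL3. They were chosen by family and from measured differences between the p16 and mock samples that were already known, so that comparison is given for them as a description, with no p-value. Counts of members past the threshold of the array-wide fit are printed only beside the share of all genes, and support nothing. Of 19775 genes that had a probe set of their own on the array, these 10 had 24 probe sets, between 1 and 5 per gene.

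Capan-1 is an established human pancreatic carcinoma line. The p16 group holds 3 samples of cells transfected with full-length p16 cDNA driven by the CMV promoter, and the mock group 3 samples of mock-transfected cells, with the numbers V1, V2 and V3 in each group. Cells of both groups grew in medium with 15% serum, and selection of transfected cells used 1 mg/ml G418 together with 0.1 mg/ml hygromycin. Whether a sample was a clone, a pool or a separate culture is not given in the labels. The p-values therefore measure the spread among these samples alone, and that spread may be technical.

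Ligands of this superfamily are secreted dimers that bring type I and type II receptor kinases together. TGF-betas and activins pass the signal to SMAD2 and SMAD3 and BMPs to SMAD1, SMAD5 and SMAD9, and both branches share SMAD4, a gene described in the literature as inactivated in Capan-1. Follistatins bind activins, and more weakly some BMPs, outside the cell and keep them from their receptors. In pancreatic carcinoma the family is known for growth arrest of epithelial cells early on and for matrix production and invasion later.

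All values are log2 expression levels, made by the authors with GCRMA, which leaves many unexpressed probe sets at about 2 to 4. A level under 4 is called the floor here. Some probe sets lay nearly flat above it, such as that of BMP7 (4.68 ± 0.01 in p16 and 4.66 ± 0.01 in mock cells). A level over 4 therefore need not mean expression. Where samples of the lower group lay at the floor, their values were raised to 4 and the fold is given as a bound (at least N-fold). The number of arrays, 3 per group, limits the precision.

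The 6 samples differed in much besides these genes. CDKN2A, which encodes p16, read 11.92, 11.96 and 11.88 in p16 samples against 2.03, 2.03 and 2.02 in mock samples on 207039_at, at least 242-fold higher. Its brightest probe set, 209644_x_at, whose probes may also bind other transcripts, read 12.60 ± 0.45 in p16 and 6.01 ± 0.41 in mock cells (SD, n = 3 each), and 211156_at lay at the floor in all 6 samples. Genes next to it that the cDNA does not carry differed in the same samples: MTAP read 11.05 ± 0.29 in p16 and 2.07 ± 0.01 in mock cells, KLHL9 11.51 ± 0.21 and 2.72 ± 0.01, and CDKN2B 8.77 ± 0.26 and 2.35 ± 0.01. Across probe sets, samples of the same group correlated at 0.927 to 0.991, and a p16 with a mock sample at 0.716 to 0.781. Epithelial markers were present in all samples, with a summed log2 level of 15.6 to 15.9 in p16 and 17.2 to 17.3 in mock samples. Of these 6 markers 4 fell in p16 cells (KRT8, KRT18, KRT19 and CDH1), or 5 with the sample number as a block, and none rose. Over all genes tested 22.5% fell and 19.5% rose, and with the block 67.9% passed in either direction. All 6 leukocyte and all 5 endothelial markers on the array lay at the floor in every sample, as did 5 of 10 stromal markers (COL1A2, COL3A1, PDGFRA, FAP and DCN). The summed stromal level was 9.44 to 9.99 in p16 and 9.52 to 9.66 in mock samples. These near sums hold opposite moves. LUM read 8.92 ± 0.42 in p16 and 2.72 ± 0.02 in mock cells, at the floor in every mock sample, so that it had to differ. ACTA2 read 5.83 ± 0.39 in p16 and 8.87 ± 0.20 in mock cells. COL1A1 read 7.76 ± 0.27 and 7.89 ± 0.40 on its brightest probe set, though 2 of its 3 tested probe sets passed as higher. PDGFRB was too dim to test. Any part of the lower epithelial markers, or of the neighbours of CDKN2A, in the results below was not tested. In such bulk samples fewer expressing cells and less RNA per cell cannot be told apart.

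Promoter sequences are printed for the 3 genes that lay at the floor in 1 group and over 10 in the other, so that the start regions of INHBA and FSTL1, higher in p16 cells, can be read beside that of GDF15, which was lower. Each runs 5′ to 3′ on the gene's strand, from 250 bases before to 50 after the annotated start, from RefSeq (GRCh38.p14), with CpG dinucleotides in capitals. GDF15 lies at chr19:18385908-18386207 (plus strand), INHBA at chr7:41703041-41703340 (minus strand) and FSTL1 at chr3:120450943-120451242 (minus strand).
INHBA: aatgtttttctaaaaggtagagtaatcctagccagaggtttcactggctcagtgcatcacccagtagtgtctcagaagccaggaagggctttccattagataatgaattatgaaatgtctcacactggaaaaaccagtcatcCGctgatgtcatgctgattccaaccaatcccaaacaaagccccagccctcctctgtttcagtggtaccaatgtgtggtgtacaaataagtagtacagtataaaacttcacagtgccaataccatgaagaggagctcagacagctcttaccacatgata
FSTL1: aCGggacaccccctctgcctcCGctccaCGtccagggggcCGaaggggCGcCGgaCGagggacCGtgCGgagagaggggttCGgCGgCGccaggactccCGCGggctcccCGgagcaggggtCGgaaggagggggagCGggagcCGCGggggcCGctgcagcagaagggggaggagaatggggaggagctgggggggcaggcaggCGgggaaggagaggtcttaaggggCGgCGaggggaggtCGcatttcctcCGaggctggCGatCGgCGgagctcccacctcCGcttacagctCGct
GDF15: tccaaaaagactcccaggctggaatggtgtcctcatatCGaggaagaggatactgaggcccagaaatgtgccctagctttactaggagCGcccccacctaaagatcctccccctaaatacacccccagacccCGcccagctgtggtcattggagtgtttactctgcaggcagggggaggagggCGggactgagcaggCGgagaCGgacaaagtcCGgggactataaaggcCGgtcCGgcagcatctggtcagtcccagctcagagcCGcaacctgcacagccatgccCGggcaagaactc
INHBA and FSTL1, both higher in p16 cells, differed widely here, with 1 CpG in the INHBA window and 30 in that of FSTL1. GDF15 had 11, and the median of all 35116 windows of this length was 14. RefSeq gave a window for 9 of the 10 genes. The letters TATAAA, searched on the gene's strand only, began 29 bases before the start in GDF15 and in TGFB2 and 11 bases before it in INHBA. They stood in 7.33% of all windows and in none of FSTL1, FSTL3, FST, INHBB, BMP4 and TGFB1. The AP-1 motif TGACTCA, searched on both strands, stood in 0 of the 9 genes' windows and in 4.95% of all. The letters CAGAC, a short form of the SMAD element, stood on either strand in GDF15, INHBA, BMP4 and TGFB2 and in 45.3% of all windows. These matches describe the letters only.

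GDF15 encodes a divergent ligand, released by stressed cells, that acts through the brain receptor GFRAL. On probe set 221577_x_at it read 3.45, 3.19 and 3.20 in the p16 samples V1, V2 and V3, against 13.87, 14.48 and 13.82 in the mock samples. All p16 samples lay at the floor and all mock samples over 13. GDF15 was at least 1064-fold lower in p16 cells (3.28 ± 0.15 in p16 and 14.06 ± 0.37 in mock cells, SD, n = 3 each). This rests on 1 probe set, whose suffix marks probes that may also bind other transcripts. The gene's promoter window printed above holds TATAAA and 11 CpG. Its second probe set, 221576_at, lay at the floor in all 6 samples, at 2.77 ± 0.16 in p16 and 2.94 ± 0.14 in mock cells. The third, 229868_s_at, reached 4 only in mock V3, at 4.01.

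INHBA encodes the beta-A subunit, which forms activin A as a dimer of itself and inhibin A with the alpha subunit. Its brightest probe set, 210511_s_at, read 11.03, 10.48 and 10.48 in the p16 samples, against 2.23, 2.79 and 2.55 in the mock samples. Every mock sample lay at the floor and every p16 sample over 10, which puts INHBA at least 101-fold higher in p16 cells. Its other probe sets had the same direction. Probe set 227140_at read 9.54, 9.66 and 9.87 in p16 against 2.56, 2.66 and 2.87 in mock samples, at least 51.7-fold higher, and the dim 204926_at read 4.91 ± 0.40 in p16 and 3.11 ± 0.02 in mock cells. INHBB, which encodes the beta-B subunit of activin B, lay at the floor in every sample on its only probe set, at 2.07 to 2.09 in p16 and 2.06 to 2.07 in mock samples.

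The close relatives BMP2 and BMP4, ligands that pattern embryonic tissues and induce bone, differed in how they compared between the groups. BMP4 read 6.45, 5.79 and 6.05 in the p16 samples, against 12.81, 12.48 and 12.45 in the mock samples. BMP4 was 89.5-fold lower in p16 cells (6.10 ± 0.33 in p16 and 12.58 ± 0.20 in mock cells). The groups were far apart and neither was at the floor, so by the rule above this fold is no bound. It rests on a single probe set, whose own background level is not known. BMP2 was dim, with 5.36, 5.78 and 5.78 in p16 samples against 3.82, 5.28 and 5.74 in mock samples on 205289_at. The groups overlapped there, and on 205290_s_at as well, where p16 cells read 5.05 ± 0.94 and mock cells 5.12 ± 1.00.

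TGFB2 encodes a TGF-beta isoform that needs the co-receptor betaglycan for strong receptor binding. Its brightest probe set, 209909_s_at, read 12.45, 11.69 and 11.65 in the p16 samples, against 11.11, 10.35 and 10.51 in the mock samples. All p16 samples lay above all mock samples, by 2.42-fold in the means (11.93 ± 0.45 in p16 and 10.65 ± 0.40 in mock cells). Probe set 228121_at gave 2.35-fold (11.64 ± 0.33 and 10.41 ± 0.34 in p16 and mock cells) with no overlap, and 220407_s_at gave 2.05-fold (9.97 ± 0.74 and 8.93 ± 0.36) with an overlap. The difference had the same sign for every sample number on these 3 probe sets. TGFB1, the isoform most cells make, read 4.22, 10.74 and 9.84 in the p16 samples V1, V2 and V3, against 3.43, 11.00 and 10.12 in the mock samples on 203085_s_at. Both V1 samples lay far under the rest, and the groups overlapped fully. The second TGFB1 probe set, 203084_at, lay at the floor in all 6 samples and gives no other reading.

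Of the follistatins, FSTL1 differed most between the groups, FSTL3 by a smaller amount without overlap, and FST groups overlapped. FSTL3 did not pass the array-wide threshold without the sample number as a block, where 42.0% of all genes did. It passed with the block, where 67.9% did. FSTL1 encodes a secreted glycoprotein of the SPARC family with 1 follistatin domain. On 208782_at it read 14.66, 14.75 and 14.92 in the p16 samples, against 3.81, 3.21 and 3.86 in the mock samples. It was at the floor in every mock sample and over 14 in every p16 sample, at least 1754-fold higher in p16 cells. Its dimmer probe sets had the same direction, 240891_at with 6.34 ± 0.54 in p16 and 3.01 ± 0.60 in mock cells and 230744_at with 5.34 ± 1.12 and 2.44 ± 0.01. FSTL3, a close relative of follistatin that binds activins, read 9.89, 8.76 and 8.69 in the p16 samples, against 8.54, 7.40 and 7.18 in the mock samples. The groups did not overlap, the means differed by 2.65-fold (9.11 ± 0.67 in p16 and 7.70 ± 0.73 in mock cells), and the differences within sample numbers were 1.35, 1.37 and 1.51. FST, follistatin itself, read 5.73, 5.89 and 5.90 in p16 samples against 5.69, 5.90 and 6.14 in mock samples on 204948_s_at. Its groups overlapped, and its other 2 probe sets were at or near the floor.

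**Figure D1:**
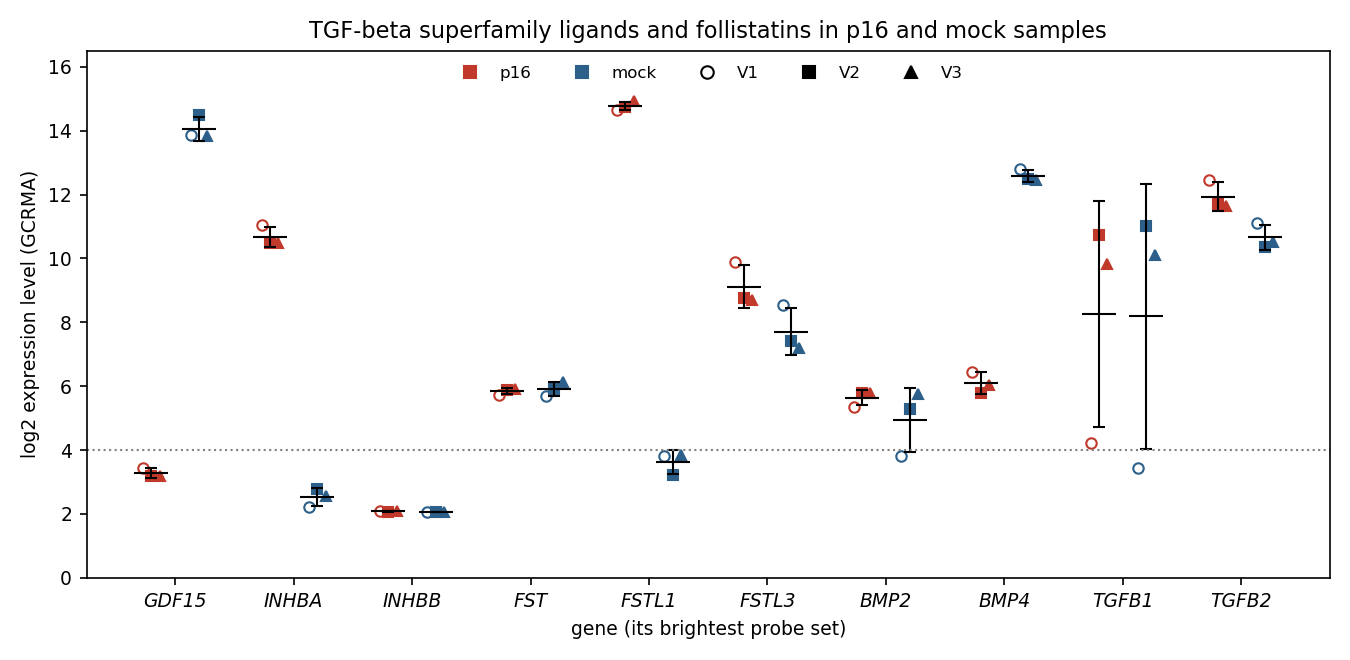
Log2 expression level (vertical axis) of the brightest probe set of each of the 10 genes (horizontal axis), with p16 samples in red left of mock samples in blue, a symbol per sample number, and the mean with the SD of 3 samples in black. The dotted line marks the floor of 4. GDF15 and BMP4 lie lower in p16 samples, INHBA and FSTL1 higher, and in TGFB1 both V1 samples lie under the others.

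**Figure D2:**
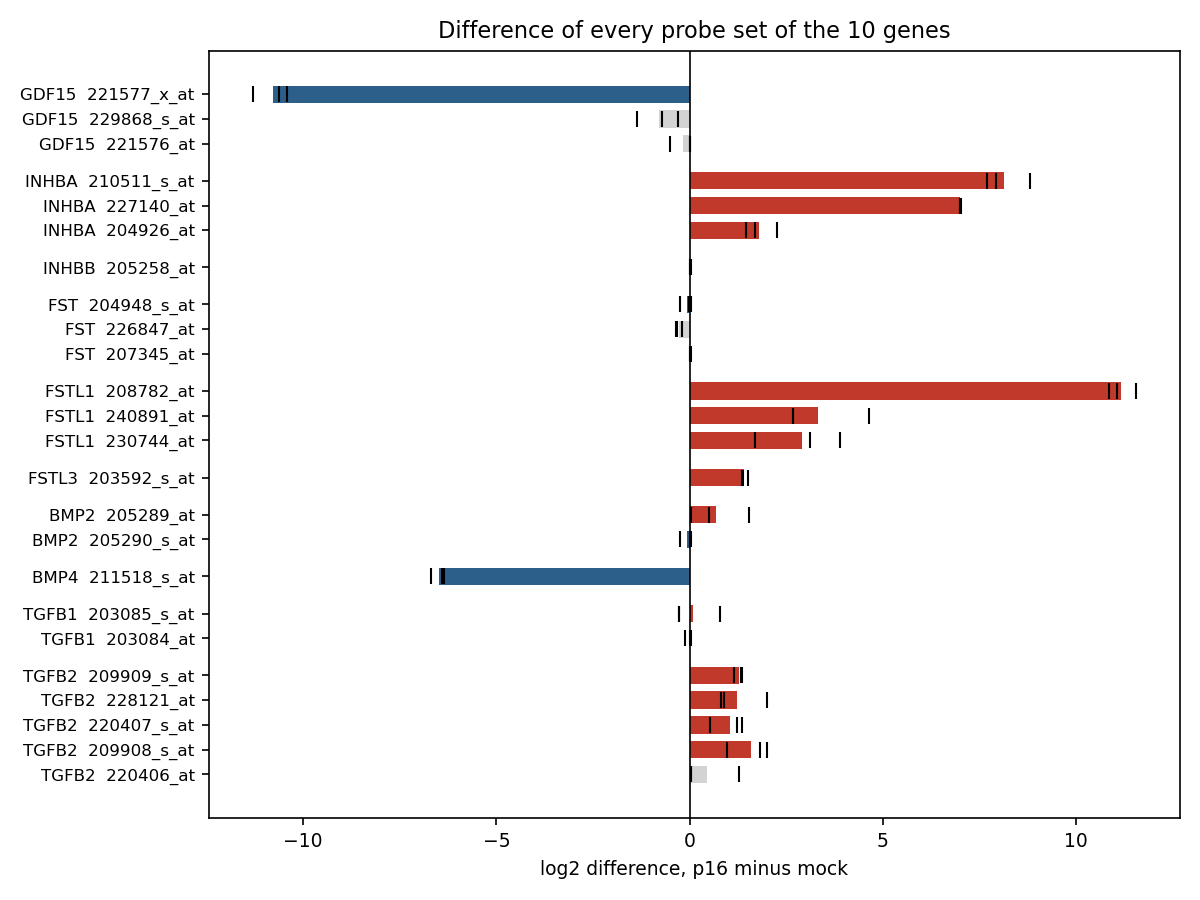
Log2 difference of p16 minus mock means (bars, horizontal axis) for each of the 24 probe sets, grouped by gene, with a tick for the difference within each sample number. Red bars are higher and blue bars lower in p16 samples among tested probe sets, and grey bars are probe sets too dim to test. All 3 probe sets of INHBA and of FSTL1 point the same way, while GDF15 rests on 1 bright probe set.

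Of the 24 probe sets 17 were bright enough to test, with a level of at least 4 in at least 3 samples, and 9 of the 10 genes had such a probe set. GDF15, INHBA and FSTL1 passed only through the group in which they were high. In the fit across the array 5 of the 9 genes passed an adjusted p of 0.05 (limma), 3 of them higher (INHBA, FSTL1 and TGFB2) and 2 lower (GDF15 and BMP4) in p16 cells. Of all 11658 genes tested 42.0% passed, 19.5% higher and 22.5% lower. With the sample number as a block FSTL3 passed too, which makes 6 of 9, against 67.9% of all genes. In 6 of the 9 genes the groups did not overlap, against 56.4% of all genes. The median difference of the 9 genes was 0.69, beside -0.03 over all genes. Nothing is read from these counts or from how they hold up, since the genes were chosen on the same comparison. The TGFB2 call was lost when p16 V2, p16 V3, mock V2 or mock V3 was left out, and the FSTL3 call was gained without mock V1.

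The sample numbers V1 to V3, which the choice of genes did not use, were tested with the group held fixed (limma, moderated F test, adjusted over all tested probe sets). Their meaning is not given in the labels. Of the 9 genes 3 differed between numbers, TGFB1, TGFB2 and FSTL3, against 32.2% of all genes, and of their 17 tested probe sets 5 did, against 33.0% of all. So the share of these genes that followed the sample number was near that of the array. TGFB1 showed the largest step: on 203085_s_at V1 minus the mean of V2 and V3 was -6.07 in p16 cells and -7.13 in mock cells, as log2 differences (adjusted p = 0.0072). The lowest V2 or V3 sample exceeded the higher V1 sample by 5.63, the widest such gap among the 11658 genes on their brightest tested probe set. This ranking was looked up after the TGFB1 values were seen. Over 4 log2 units, the gap was found in 2 genes and in 20 of 24406 probe sets, and in the other direction in 0 genes and 4 probe sets.

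TGFB2 held a similar step on 1 of its probe sets but none of that size on its brighter ones. Probe set 209908_s_at read 3.92, 9.13 and 9.46 in the p16 samples V1, V2 and V3, against 2.95, 7.13 and 7.65 in the mock samples (adjusted p for the number 0.0072). On the brighter 220407_s_at V1 minus the mean of V2 and V3 was -1.26 in p16 and -0.51 in mock cells (adjusted p = 0.064, F test). On 228121_at it was 0.56 in p16 and -0.58 in mock cells, and this probe set did not pass. On 209909_s_at V1 lay above the mean of V2 and V3 instead, by 0.78 in p16 and 0.68 in mock cells (adjusted p = 0.030). FSTL3 was likewise higher in V1, by 1.16 in p16 and 1.26 in mock cells (adjusted p = 0.011, F test). The TGFB2 call for the sample number was lost whichever 1 sample was left out. The BMP2 probe set 205290_s_at set V3 apart, with 3.97 in p16 V3 and 3.96 in mock V3 (adjusted p = 0.0083). GDF15, INHBA, FSTL1, BMP4 and FST did not pass this test on any probe set (adjusted p of 0.13 to 0.98). Without p16 V2 or without mock V2 none of the 9 genes passed (limma, with 3 at an unadjusted p under 0.05 in either case), and neither did any of the 11658 genes. Without both V1 samples TGFB1 in p16 cells differed from mock cells by -0.27 and -0.28 within V2 and V3.

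**Figure D3:**
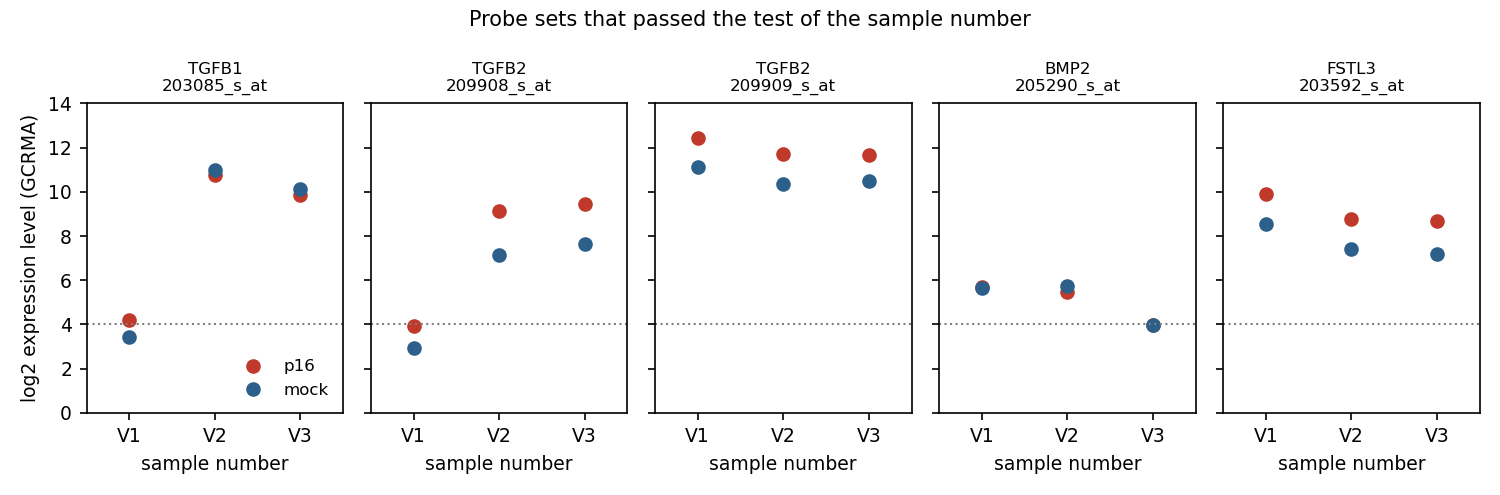
Log2 expression level (vertical axis) by sample number (horizontal axis) of the 5 probe sets that passed the test of the sample number, with p16 samples in red and mock samples in blue. The TGFB1 probe set and 209908_s_at of TGFB2 drop in V1 of both groups to about the dotted floor of 4, whereas 209909_s_at of TGFB2 and FSTL3 are highest in V1.

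Receptors and SMADs that would read these ligands held calls in both directions. All genes of the receptor list that rose were co-receptors at the floor in mock cells. In this list of receptors and co-receptors 3 of 13 tested genes rose and 6 fell in p16 cells (3 and 7 with the sample number as a block). The median difference was -0.64. Over all genes the shares were 19.5% and 22.5%, or 67.9% in either direction with the block, and the median was -0.03. These all-gene values also stand beside the counts of the lists below. TGFBR2, the type II receptor of TGF-betas, read 9.52, 8.24 and 8.51 in p16 samples against 13.55, 11.97 and 12.07 in mock samples, 13.7-fold lower (limma adjusted p = 0.0037), though 1 of its 2 tested probe sets did not pass. ACVR1B, the type I activin receptor, fell 5.11-fold (8.94 ± 0.43 in p16 and 11.29 ± 0.50 in mock cells, adjusted p = 0.0037). ACVR2A, a type II activin receptor, read 7.53 ± 0.28 in p16 and 8.18 ± 0.23 in mock cells (adjusted p = 0.069, and 0.0072 with the sample number as a block). The co-receptors that rose were at the floor in mock cells: ENG, endoglin, was at least 22.7-fold higher, RGMB, a BMP co-receptor, at least 24.0-fold and CD109, which binds TGF-beta, at least 9.11-fold. These genes, like SMAD9, CHRDL1, SPARC, ID3, BMP6, PCSK5, ID2 and MSX2 below, lay at the floor throughout 1 group and passed the low value filter only through the other, so that they had to differ, and no p is given for them.

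Among SMADs and their regulators 5 of 14 rose and 5 fell (5 and 6 with the block), with a median difference of 0.13. SMAD4 read 9.94 ± 0.31 in p16 and 5.33 ± 0.55 in mock cells, 24.4-fold higher (adjusted p = 0.00024), and both of its tested probe sets rose. SMURF2, a ubiquitin ligase that acts on SMADs and receptors, rose 18.0-fold and SMAD9 at least 4.05-fold. SMAD3 fell 4.53-fold (8.04 ± 0.30 in p16 and 10.21 ± 0.45 in mock cells, adjusted p = 0.0027), and 2 of its 3 tested probe sets passed as lower. SMAD2 read 10.73 ± 0.87 in p16 and 10.37 ± 0.84 in mock cells on its brightest probe set (adjusted p = 0.68). Of its 5 tested probe sets 2 passed as higher in p16 cells. The inhibitory SMADs, which are themselves induced by the pathway, were lower, SMAD6 by 39.2-fold (on 1 of 2 tested probe sets) and SMAD7 by 4.95-fold (4.26 ± 0.06 in p16 and 6.57 ± 0.26 in mock cells, adjusted p = 0.00039).

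Other ligands and extracellular partners were mostly dim. Of 22 further ligand genes on the array 12 lay at the floor throughout, and of 9 tested 3 fell and 0 rose, with a median difference of 0.02. BMP8B fell 17.9-fold (5.14 ± 0.18 in p16 and 9.30 ± 0.36 in mock cells), BMP6 at least 6.20-fold and TGFB3 at least 6.43-fold. Of 3 secreted antagonists tested, CHRDL1, a chordin-like BMP binder, was at least 38.0-fold higher and NBL1, a DAN family BMP antagonist, 6.05-fold lower, with a median of 0.03. Among 4 relatives with a follistatin domain, SPARC passed without the block, with 8.01 ± 0.71 in p16 and 2.71 ± 0.01 in mock cells, at least 16.1-fold higher, and the median was -0.26. With the sample number as a block AGRN and SMOC1 passed too, both lower in p16 cells (limma adjusted p of 0.0022 and 0.030, against 0.094 and 0.066 without it). They were chosen for naming after their values were seen. In the list of latency, processing and activation genes 2 of 10 rose and 4 fell (2 and 5 with the block), with a median of -0.35. PCSK5, a proprotein convertase, was at the floor in p16 cells and at least 58.5-fold lower. LTBP1 and LTBP3, which tether latent TGF-beta to the matrix, went opposite ways, LTBP1 9.84-fold higher (on 1 of 2 tested probe sets) and LTBP3 9.45-fold lower, and the latent TGF-beta activating integrin subunit ITGB8 fell 5.17-fold.

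Genes known to respond to TGF-beta had 5 of 14 higher and 5 lower in p16 cells, or 8 lower with the sample number as a block, with a median difference of -0.70. COL4A1, a basement membrane collagen, was at least 142-fold higher, and FN1, fibronectin, and TAGLN, an actin-binding protein, rose 10.3-fold and 13.4-fold, while PMEPA1, a feedback inhibitor, fell 27.6-fold (5.85 ± 1.00 in p16 and 10.63 ± 0.66 in mock cells, adjusted p = 0.0019). Genes known to respond to BMPs had 2 of 10 higher and 6 lower (2 and 7 with the block), with a median of -2.68. Of those called without the block, ID3, SMAD9, ID2, MSX2 and ATOH8 lay at the floor throughout 1 group and had to differ. ID3 read 8.50, 8.75 and 8.73 in p16 samples against 2.44, 2.44 and 2.43 in mock samples, at least 25.3-fold higher. Its relative ID2, at the floor in p16 cells, was at least 12.8-fold lower and the homeobox gene MSX2 at least 33.7-fold lower. ID1 read 7.50, 10.76 and 10.51 in p16 samples against 10.80, 13.73 and 13.40 in mock samples, with V1 the lowest in each group (adjusted p = 0.094, and 0.00021 with the sample number as a block). SMAD6, SMAD7, SMAD9, SKIL and LTBP2 stand in more than 1 list. Over all these lists, with each gene counted once, 16 of 71 genes rose and 27 fell, beside 19.5% and 22.5% of all genes. Among those that rose, ENG, RGMB, CD109, SMAD9, CHRDL1, SPARC and ID3 lay at the floor throughout mock samples and had to differ. Among those that fell, the same held for BMP6, PCSK5, ID2, MSX2 and ATOH8 in p16 samples. How many such genes the all-gene shares hold is not given here. With the block 16 rose and 36 fell, beside 67.9% of all genes in either direction. The all-gene share by direction with the block is not given here, so these 2 counts cannot be set against it. The median was -0.62, beside -0.03 over all genes. The lists were drawn up with earlier results of these data known.

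**Figure D4:**
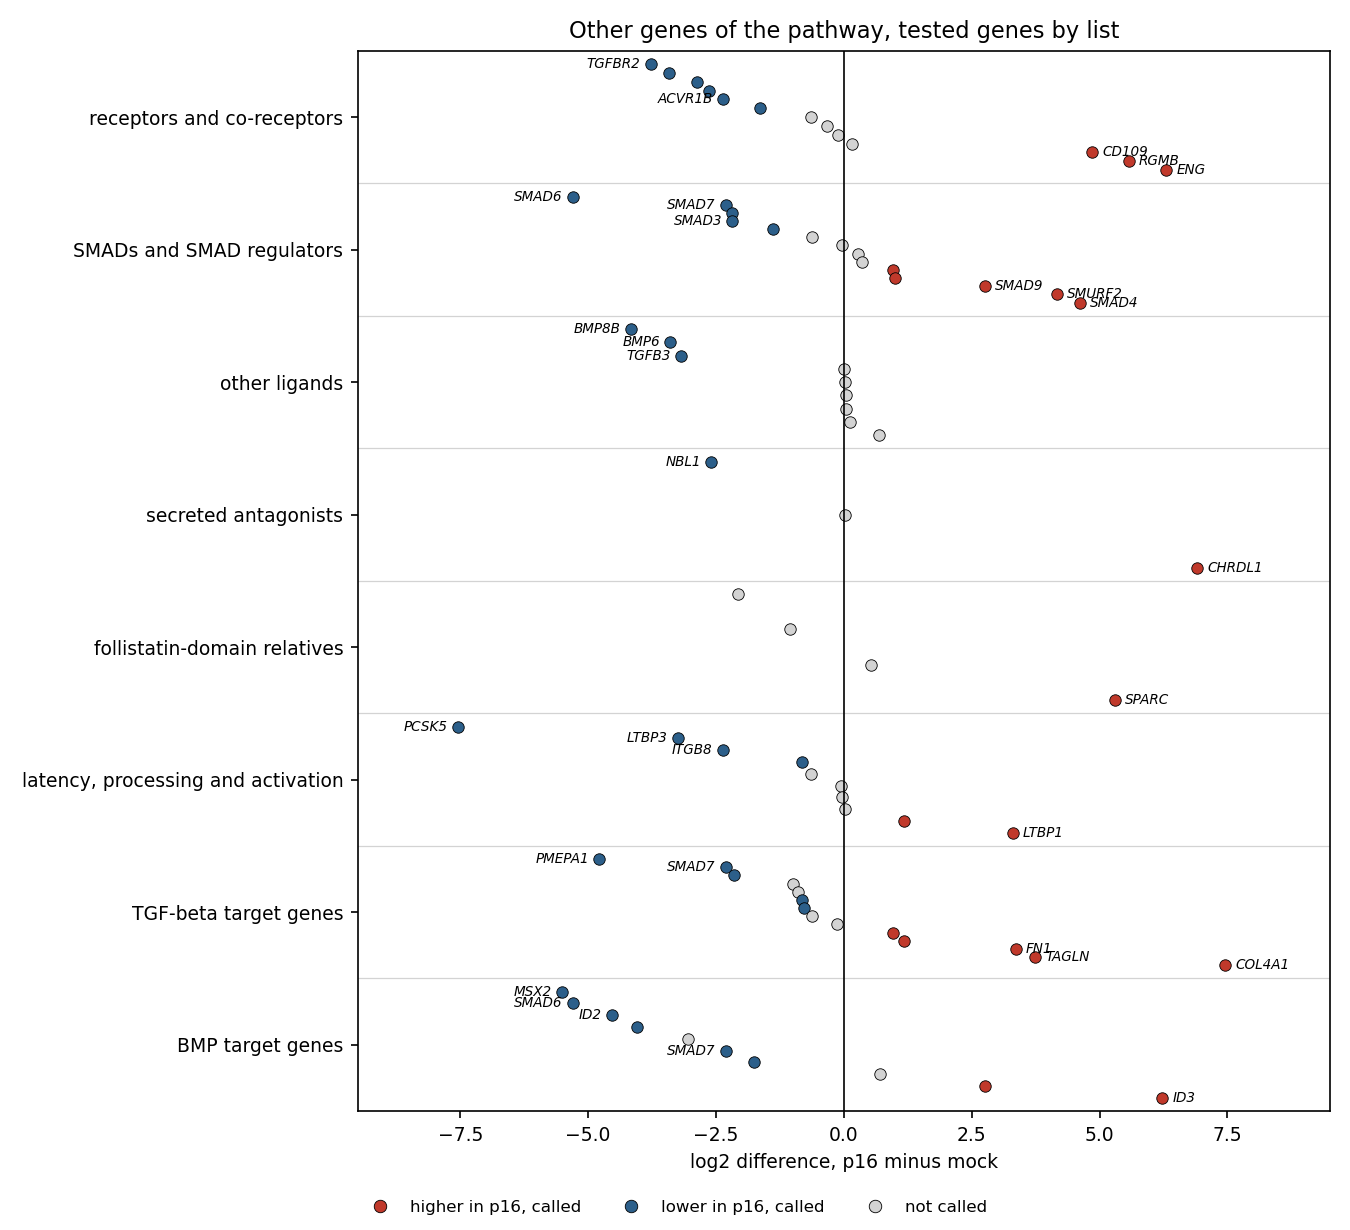
Log2 difference of p16 minus mock means (horizontal axis) for each tested gene of 8 pathway lists (rows), red where it was called higher, blue where lower and grey where not called. Differences of both signs occur among receptors, SMADs and TGF-beta targets. The receptor-list genes called higher (ENG, RGMB and CD109) lay at the floor in mock samples. Of the 10 BMP targets 6 were called lower, beside 22.5% of all genes. Among them ID2, MSX2 and ATOH8 passed the low value filter only through mock samples.

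Genes whose levels across the 6 samples lay nearest to those of GDF15 and FSTL1, by Euclidean distance of log2 values over tested genes, are given as a description. Nearest to GDF15 was IGFBP4, an insulin-like growth factor binding protein, at a distance of 0.83, with 3.06, 3.16 and 3.71 in p16 samples against 13.52, 14.41 and 13.43 in mock samples. DMBT1, a mucosal glycoprotein, followed at 1.71 and GNE, an enzyme of sialic acid synthesis, at 2.21. Nearest to FSTL1 were OXTR, the oxytocin receptor, at 2.46, IL7R, the interleukin 7 receptor, at 2.48 and MAMDC2 at 2.56. OXTR read 13.49, 13.39 and 13.40 in p16 samples against 4.44, 2.92 and 3.60 in mock samples.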

How the data were processed

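The deposited table holds log2 expression levels of 54675 probe sets, 1 column per sample, which the authors made with GCRMA, per the submitters' processing notes; its version is not given in the sources used here. Per the labels' protocols, labelled cRNA came from 300 ng of total RNA. After 62 control probe sets were left out, 41091 had 1 gene in GEO's platform annotation (symbols checked by gene ID against GRCh38.p14) and 1801 had several and were not used. The 24406 probe sets that reached a level of 4 in 3 or more samples were fitted with limma 3.58.1 in R 4.3.3 (lmFit, eBayes, two-sided). The main comparison had no block, and p-values were adjusted over all probe sets tested (Benjamini-Hochberg), with 0.05 as the threshold. The fit was also run on simulated data with noise drawn independently for each sample. That setting lacks the deviations shared by sample number described below, so nothing about these data is read from it. Each gene was read on the tested probe set of highest mean. Sample numbers were tested in a fit of group plus number.

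Deviations from the group means correlated between samples of the same number (0.814, 0.751 and 0.669, each over the 0.1 required), so samples were taken as paired by number. The main comparison did not use this pairing, and only the fit with the block did. Over all genes 42.0% were called without the block and 67.9% with it. V2 and V3 of different groups also did (0.422 and 0.513). Pathway genes were named by rule: up to 4 called per list with the largest difference, and a few fixed genes, of which 1 was not analysed here. The members and lists were chosen with earlier results of these data known. Alternatives were another normalization, filter, variance model, probe set rule and floor, the block, and leaving out samples. Python 3.11.15, pandas 2.3.3, numpy 2.4.6 and matplotlib 3.10.9 made tables and figures.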

Additional observations from a re-analysis of the deposited data

How the results depend on the processing

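Of the 9 tested genes, 5 passed in p16 against mock, beside 42.0% of all genes. Under the alternatives tried 4 to 6 did, beside 20.4% to 67.9% of all genes. The genes tested numbered 10 without the low value filter and 7 with a stricter one. The genes were chosen on this comparison, so these counts are no evidence of stability. TGFB2 did not pass with the mean of a gene's probe sets, without the low value filter, or without p16 V2, p16 V3, mock V2 or mock V3, and FSTL3 passed with the replicate block, without mock V1 and, an alternative chosen after seeing the data, without both V1 samples. Pathway genes called numbered 43 of 71, beside 42.0% of all genes, and 52 of 71 with the block, beside 67.9%. Both counts hold the genes named above that lay at the floor throughout 1 group and had to differ. Without the low value filter 41 of 113 passed, beside 20.4% of all genes. With a stricter filter at a level of 6, 41 of 61 passed, beside 42.7%. Under the other alternatives 43 to 49 of 71 passed, beside 41.0% to 58.9% of all genes. When 1 sample was left out, 37 to 45 of 71 passed, beside 29.9% to 42.2%. The block moved calls over all genes to 7916 against 4895. Leaving out 1 sample gave 0 to 3 genes called for the sample number against 3 with all samples. Over all genes, that test called 3758, but 1917 without the filter, 1490 and 1448 without p16 V3 and mock V3, and 0 without p16 V2 or mock V2 (limma, 3919 and 3667 at an unadjusted p under 0.05). The sample number fit without 1 sample keeps 1 residual degree of freedom per probe set. In these fits the TGFB2 call was lost whichever sample was left out, and without p16 V1 BMP2 stood in its place. With a floor of 3 or 5 the bounds became 1750-fold and 532-fold for GDF15, 202-fold and 50.6-fold for INHBA and 2268-fold and 877-fold for FSTL1. Averaging probe sets gave log2 differences of 5.65 for INHBA and 5.79 for FSTL1 in place of 8.14 and 11.15. Quantile normalization gave 0.20 for FST in place of -0.07.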
